A study of Mus musculus with 55 samples.

Results

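The comparison described here set the cerebellum of 5 R192 mouse arrays exposed to chlorpyrifos oxon (CPO) at 0.5 mg per kg per day against 4 R192 arrays given the vehicle alone. The R192 animals carry the genotype label tgHuPON1R192 on the C57Bl/6 strain, a transgene for the R192 form of human paraoxonase 1. The vehicle was dimethyl sulfoxide (DMSO). In both groups the daily injections were given under the skin from postnatal day 4 to postnatal day 21, and tissue was taken at postnatal day 22. The arrays were chosen by their titles, and they are 9 of the 55 arrays of the series. Of the 19938 genes with a probe set of 1 gene symbol, the 14950 with a mean level above 6.44 on the log2 scale, sex-linked genes aside, were tested. The whole series holds 12 groups, formed by 4 genotypes and 3 treatments. Used here for comparison were 5 R192 arrays at CPO 0.35 (0.35 mg per kg per day on the same schedule). Further comparisons used vehicle and CPO 0.5 arrays of wild type (WT, Pon1+/+, 6 and 3 arrays), of Q192 (tgHuPON1Q192, 4 and 5) and of the label KO (Pon1-/-, 4 and 3).

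Chlorpyrifos oxon is the active metabolite of the insecticide chlorpyrifos. It phosphorylates the active site serine of acetylcholinesterase, so that acetylcholine builds up at synapses, and it can bind other serine hydrolases. Paraoxonase 1 (PON1) is a plasma enzyme made mainly in the liver that hydrolyses the oxon, and its R192 and Q192 forms differ by 1 amino acid that affects the rate of this reaction. The cerebellum in the weeks after birth is still forming its granule neurons, synapses and myelin. The published descriptions of this strain place the human transgene in mice that lack their own Pon1. The labels used here state neither that background nor the promoter, and they do not say whether each array is a separate animal. The p-values therefore measure the spread between arrays, pooled over all 12 groups of the series, which may not be that between animals.

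The tissue label was checked against marker lists. In the 9 arrays the mean level of 20 granule neuron markers lay between 10.23 and 10.66 on the log2 scale, and that of 16 Purkinje cell markers between 10.16 and 10.45. The 26 brainstem and midbrain neuron markers had means of 7.87 to 8.13. The median level of all genes on an array ranged only from 7.42 to 7.48 in R192. Xist, a transcript of the inactive X chromosome, was low in all 9 arrays, at 5.54 to 5.96, against 5.31 to 11.33 over the series. The probe set of Pon1 lay between 10.02 and 10.31 in the 9 arrays and between 4.88 and 5.55 in the 6 vehicle arrays of WT. It was also at 9.95 to 10.35 in the 4 vehicle arrays labelled KO, so the signal of this probe set does not follow that label.

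No gene differed between CPO 0.5 and vehicle in R192 cerebellum past the threshold. In limma, the smallest adjusted p over 14950 genes was 1.0, and 0% of genes were called at an adjusted p under 0.05. With no adjustment, limma gave 152 genes (1.02%) a p under 0.05, and 61 of them (0.408%) were higher with CPO and 91 (0.609%) lower. With no true difference, a fraction of about 0.05 of genes is expected to reach this p, more than was seen. The median size of a difference was 0.045 on the log2 scale, and the median standard error was 0.091. Only 21 genes differed by more than 0.3, and 5 of the 14950 by more than 0.5.

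The precision of this comparison can be stated gene by gene. For 14577 of the 14950 genes (97.5%), the 95% interval of the difference lay wholly between -0.5 and 0.5, which is a change of less than 1.41-fold either way. The share was 98.2% for genes with a mean level under 7, 97.5% for those at 7 to 9 and 97.2% above 9. The number of arrays limits this precision, and so does the spread, which was pooled over all 12 groups. With only the 9 arrays compared, 14897 intervals lay inside these bounds.

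Distances between arrays of different groups overlapped those within groups. Over the tested genes, the root mean square difference between an exposed and a vehicle array was 0.133 to 0.215 (median 0.162 over 20 pairs). Between exposed arrays it was 0.142 to 0.179 (median 0.167 over 10 pairs), and between vehicle arrays 0.155 to 0.22 (median 0.175 over 6 pairs). The median standard deviation of a gene was 0.096 in the exposed arrays and 0.105 in the vehicle arrays. For comparison, the median size of the CPO 0.5 difference was 0.09 in Q192, 0.112 in WT and 0.111 in the arrays labelled KO, with median standard errors of 0.091, 0.097 and 0.104.

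**Figure D1:**
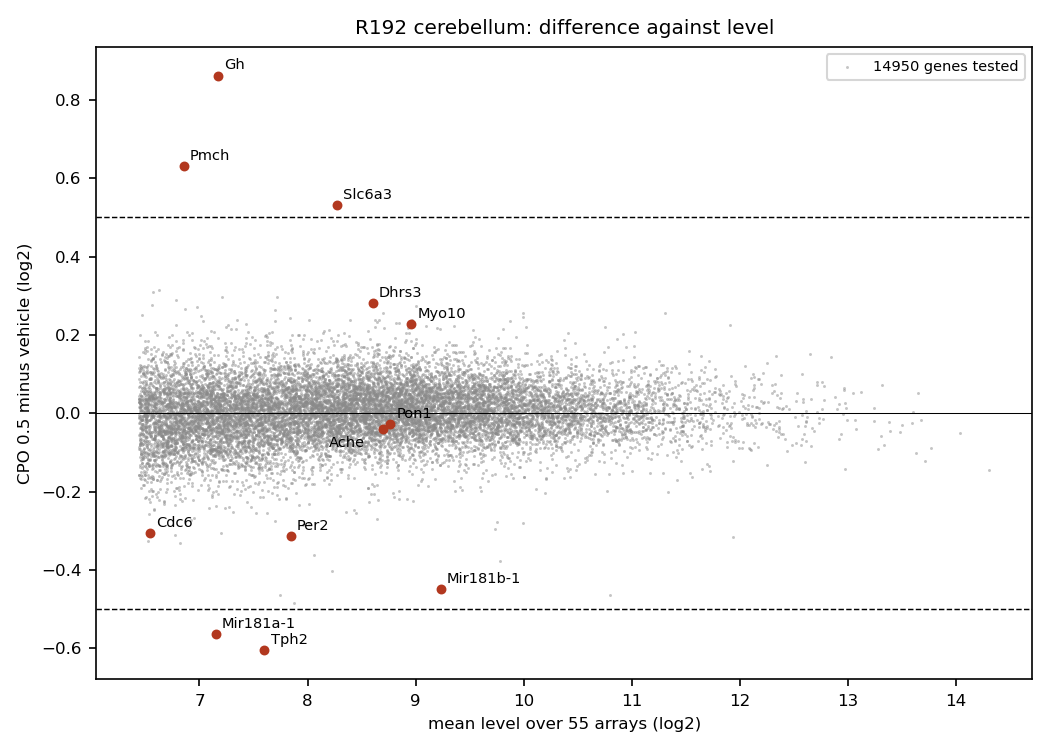
Difference between CPO 0.5 and vehicle in R192 (log2, vertical axis) against the mean level of each gene over 55 arrays (log2, horizontal axis), with 12 genes marked in red and dashed lines at -0.5 and 0.5. Most points sit close to 0 at every level, and 5 genes lie beyond a line.

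Among the genes lower with CPO by the largest differences or the widest gaps were 2 microRNA genes of one family, which lie side by side on chromosome 1. MicroRNAs of the miR-181 family silence messenger RNAs that pair with their seed, bases 2 to 8 of the mature strand. The mature 5p sequences are shown because all 4 share that seed while their genes gave different values here. The seed is in capitals, and the sequences are those of RefSeq for GRCm38.p6, where 4 of 1679 mature mouse sequences have this seed.
miR-181a-5p, chr1:137966468-137966490, plus strand: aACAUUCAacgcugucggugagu
miR-181b-5p, chr1:137966650-137966673, plus strand: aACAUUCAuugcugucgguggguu
miR-181c-5p, chr8:84178924-84178945, minus strand: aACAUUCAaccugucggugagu
miR-181d-5p, chr8:84178759-84178781, minus strand: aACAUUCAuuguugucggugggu

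Mir181a-1, the chromosome 1 gene for miR-181a, had levels of 6.59, 6.51, 6.95, 7.20 and 6.98 in the exposed arrays and of 7.20, 7.67, 7.53 and 7.20 in the vehicle arrays. The highest exposed array reached the 2 lowest vehicle arrays, and the other exposed arrays lay below them all. The difference was -0.56 (standard error 0.24, 95% interval -1.05 to -0.07), a ratio of 0.68. Mir181b-1, its neighbour, had levels of 8.73, 8.80, 9.20, 9.23 and 9.13 with CPO and of 9.32, 9.80, 9.37 and 9.32 with vehicle. All 5 exposed arrays lay below all 4 vehicle arrays, with a gap of 0.086 between the groups. The difference was -0.45 (standard error 0.22, interval -0.89 to -0.00), a ratio of 0.73.

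Neither gene passed the threshold in limma, where both had an adjusted p of 1.0. Array date 1 alone, which holds 5 of the 9 arrays, gave -0.74 for Mir181a-1 and -0.64 for Mir181b-1, and array date 2 gave -0.27 and -0.16. The other copy of the miR-181a gene, Mir181a-2, lay between 6.33 and 6.73 with CPO and between 6.60 and 6.96 with vehicle, a difference of -0.22. Mir181c and Mir181d, on chromosome 8, overlapped between groups, with differences of -0.06 and -0.05. Mir181b-2, the other copy of the miR-181b gene, was below the level filter, with means of 6.41 with CPO and 6.50 with vehicle. These relatives were looked up after the values of the first 2 genes were seen. What these probe sets read at each locus was not tested, so the values are not given as levels of the mature strands.

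Among the genes with the smallest p that were higher with CPO were several of known function, by 0.17 to 0.28 on the log2 scale. Rgs20, which speeds the switching off of G protein alpha subunits, had the smallest p of all genes (0.00238, unadjusted, limma) and a difference of 0.20. Its levels were 6.93, 7.02, 6.95, 6.89 and 6.83 with CPO and 6.68, 6.84, 6.59 and 6.77 with vehicle, so that 1 exposed array fell within the vehicle range. Amacr, a racemase of branched fatty acids and bile acid precursors, was at 7.24, 7.34, 7.28, 7.19 and 7.35 against 7.14, 7.03, 7.04 and 7.03. Here all exposed arrays were above all vehicle arrays, and the difference was 0.22 (standard error 0.07).

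Dhrs3, an enzyme that turns retinal back into retinol, had the largest difference of these genes, 0.28 (standard error 0.10, interval 0.09 to 0.47). Its exposed arrays read 8.60, 8.67, 8.66, 8.55 and 8.67, and its vehicle arrays 8.32, 8.20, 8.55 and 8.35. The exposed arrays were tight and stayed above the vehicle arrays, by 0.002 at the nearest point. Within array date 1 the difference was 0.38 and within array date 2 it was 0.16.

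Myo10, an unconventional myosin of filopodia, had the widest gap of all genes higher with CPO, 0.071. Its levels were 8.85, 8.94, 8.92, 8.92 and 8.83 with CPO and 8.72, 8.58, 8.76 and 8.59 with vehicle, a difference of 0.23 (standard error 0.08). Ift122, a subunit of the transport machinery of cilia, was 0.20 higher and lay between 7.80 and 8.01 against 7.61 to 7.81. Plcb1, the phospholipase C that acts below G protein coupled receptors, lay between 9.46 and 9.68 against 9.29 to 9.40, with a difference of 0.19. Aaas, a nuclear pore protein, and Chst14, a sulfotransferase of dermatan sulfate, were 0.20 and 0.23 higher. 2510002D24Rik and Msl3l2 complete these 10 genes, with differences of 0.17 and 0.21.

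Of the genes lower with CPO, Cdc6, which licenses the start of DNA replication, had the smallest p. Its levels were 6.79, 6.26, 6.30, 6.42 and 6.35 with CPO and 6.74, 6.85, 6.62 and 6.67 with vehicle. Exposed replicates 2 to 5 lay below the vehicle range and the first lay within it. The difference was -0.31 (standard error 0.10), in a gene close to the lowest level tested. Of the 20 dividing cell markers tested, which include Cdc6, 12 were lower and 8 higher, with a median of -0.05. Mcm5, another gene of replication licensing, was 0.09 higher.

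Zbtb8b, a zinc finger protein, was at 6.58, 6.71, 6.73, 6.69 and 6.69 with CPO and at 6.85, 6.84, 6.93 and 6.86 with vehicle. The groups were separated by 0.109, and the difference was -0.19. Tnfaip8l3, a carrier of phosphoinositide lipids, differed by -0.27, with 6.78 to 6.97 against 7.04 to 7.33. Cdnf, a neurotrophic factor of the endoplasmic reticulum, and Selenbp1, a methanethiol oxidase, each differed by -0.19 with no overlap. Gapdhs, the sperm form of a glycolytic enzyme, differed by -0.23 and Cep89, a protein of centriole appendages, by -0.16, and in both 1 exposed array overlapped.

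The other genes of this set carry a limit of their own. Baiap2l1, a protein that bends membranes, differed by -0.14 at a level near the top of the scale, 13.98 to 14.29 with CPO and 14.23 to 14.41 with vehicle. Its other probe sets gave group means that differed by -0.09 and -0.10. D430042O09Rik differed by -0.23 in the probe set used, but its 8 other probe sets gave -0.08 to 0.06. 6820408C15Rik differed by -0.21. All 20 of these genes kept the direction of their difference on both array dates. They were picked by p from the same arrays, with array date in the fit, so this is not a separate check.

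**Figure D2:**
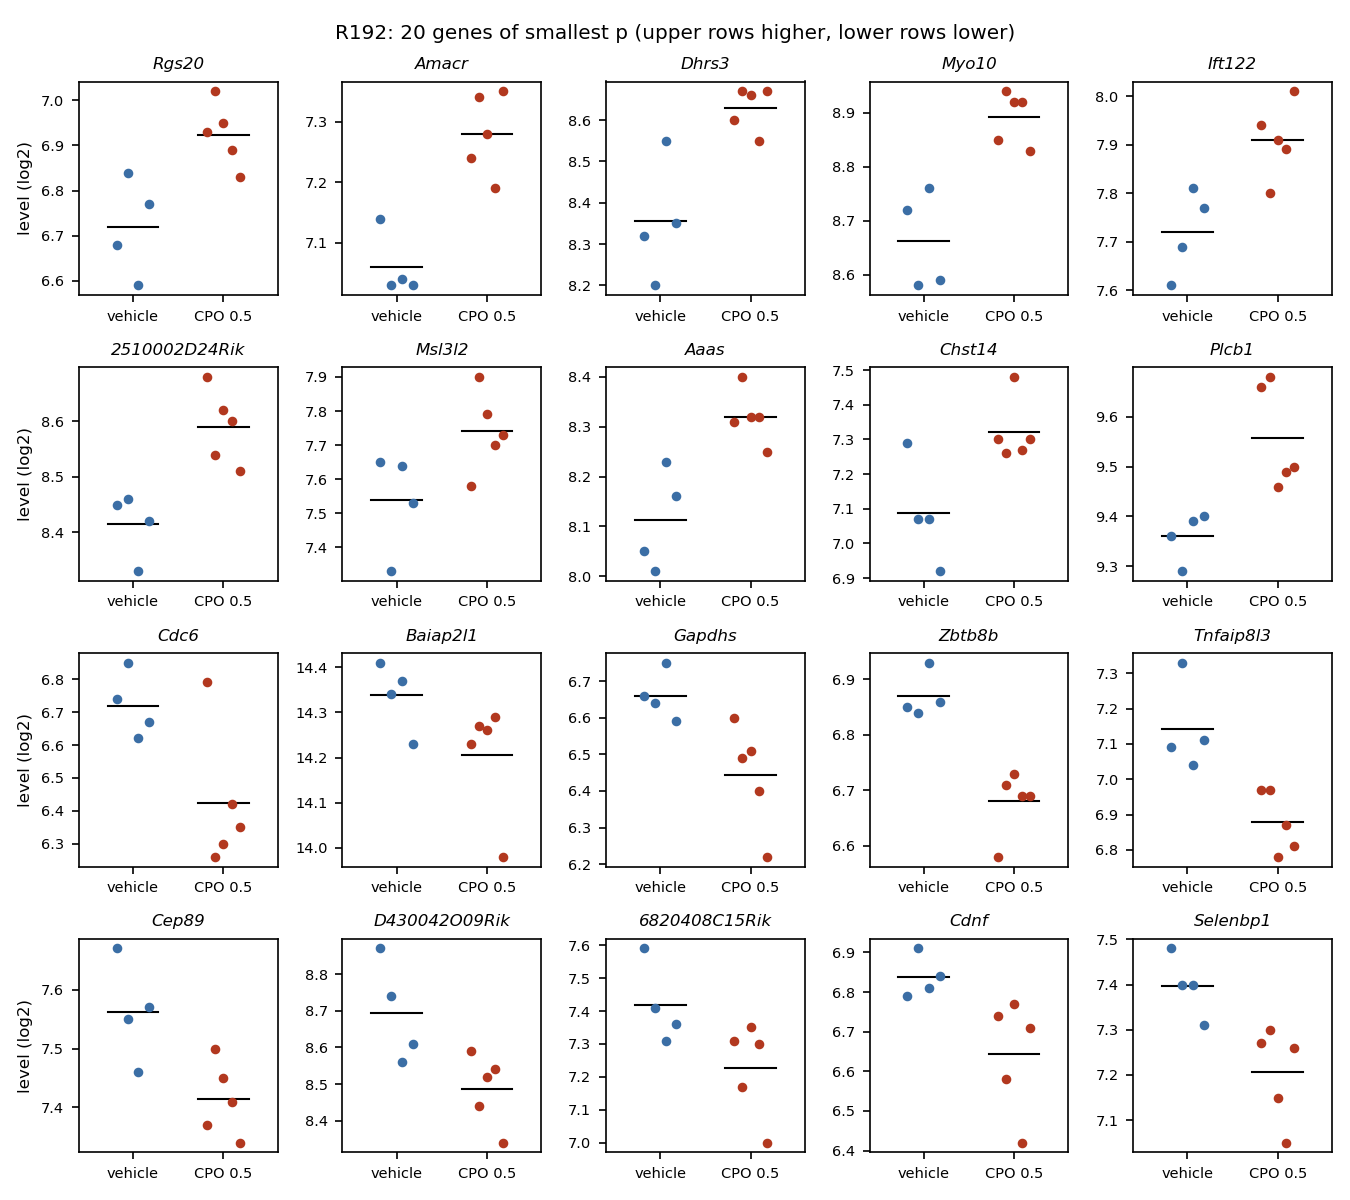
Level on the log2 scale in each of 4 vehicle arrays (blue) and 5 CPO 0.5 arrays (red) for the 20 genes named above for their p, with group means as bars and a vertical axis of its own for each gene. The groups do not overlap in 10 of the 20 genes, among them Amacr, Myo10 and Zbtb8b, and no gene passed the threshold. Over all genes tested the share without overlap was 0.823%, and these 20 were picked by p from the same arrays.

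Complete separation of the groups was seen in 123 genes, and with so few arrays some such genes are expected with no true difference. All 5 exposed arrays lay above all 4 vehicle arrays in 63 genes (0.421%) and below them in 60 (0.401%). Of these 123 genes, 39 also had an unadjusted p under 0.05 in limma. The widest gap of any gene, 0.158, belonged to 4930578G10Rik, an unnamed transcript, at 7.39, 7.73, 7.45, 7.71 and 7.59 with CPO and 8.20, 7.89, 8.05 and 8.08 with vehicle. Its difference was -0.48 (standard error 0.22). Next was Cebpd, a transcription factor of inflammatory and hormonal responses, at 6.33 to 6.52 against 6.64 to 6.74, a difference of -0.25. Prss35, a relative of serine proteases, lay at 7.02 to 7.16 against 7.24 to 7.33.

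On the higher side, the gaps were narrower. Aass, an enzyme of lysine breakdown, was at 6.79 to 6.94 against 6.50 to 6.73, a difference of 0.20. Pecam1, an adhesion molecule of endothelial cells, was at 8.07, 8.14, 8.10, 8.13 and 8.08 against 7.85, 8.02, 7.93 and 8.01, a difference of 0.16. 2410002F23Rik differed by 0.14 in the probe set used, while its other probe set gave group means that differed by -0.01.

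The largest differences came from genes in which a few arrays stood apart. Gh, growth hormone, had the largest of all, 0.86 (standard error 0.41, interval 0.04 to 1.69). Its levels were 7.15, 8.55, 7.12, 8.76 and 6.88 with CPO and 6.78, 6.94, 6.73 and 6.83 with vehicle. Exposed replicates 2 and 4 were high, and the other 3 lay near the vehicle arrays. Without these 2 arrays the difference was 0.26.

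The same 2 arrays were the highest of the 9 for some other hormone genes of the pituitary. Of the 6 such genes other than Gh with a probe set of 1 symbol, chosen after the values of Gh were seen, replicates 2 and 4 were the 2 highest arrays in 4. Only Pomc and Lhb of the 6 lay above the level filter of 6.44 and were tested, so the ranks of the rest are those of weak signals. Prl, prolactin, read 6.20 and 6.25 there against 5.06 to 5.60 in the other arrays. Pomc, the precursor of corticotropin, read 7.63 in replicate 2, was next highest in replicate 4 and reached at most 7.12 elsewhere, and Cga, the shared subunit of glycoprotein hormones, read 5.85 and 6.29. Tshb was at 5.50 and 5.49 in them and at 5.38 or less in the other 7. The exceptions were Lhb and Fshb, which were highest in exposed replicate 5. The part of pituitary tissue in the Gh value was not tested.

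Genes of neurons that use monoamines or hypothalamic peptides also varied from array to array. Pmch, the precursor of melanin-concentrating hormone, was at 8.92, 6.03, 8.49, 6.65 and 6.51 with CPO and 7.31, 5.87, 6.92 and 6.65 with vehicle. Replicates 1 and 3 were high, the difference of 0.63 had an interval of -1.07 to 2.34, and it was 1.24 on array date 1 and -0.20 on array date 2. Hcrt, another hypothalamic peptide gene, was also highest in these 2 arrays, at 7.30 and 7.34 against 6.72 to 6.96 in the other 7. It was the only one of 6 further hypothalamic peptide genes, also chosen after the values were seen, to follow them, and in 3 of the 6 (Avp, Cartpt and Crh) a vehicle array was highest. Cartpt differed by -0.36, and Oxt, Avp and Trh by 0.03, 0.02 and 0.00.

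Tph2, which makes serotonin, was at 7.78, 7.45, 8.29, 6.98 and 6.91 with CPO and 7.53, 8.29, 8.15 and 8.32 with vehicle, a difference of -0.61 with an interval of -1.64 to 0.43. It differed by -0.05 on array date 1 and by -1.29 on array date 2. Slc6a3, the dopamine transporter, was at 8.48, 7.81, 8.47, 8.52 and 9.33 against 7.99, 7.41, 8.50 and 8.36, a difference of 0.53. The groups overlapped in both genes. Of the 26 brainstem and midbrain neuron markers, a list that holds both, 15 were higher and 11 lower with a median of 0.02. The part of tissue from outside the cerebellum in these values was not tested.

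The other genes with large differences mostly overlapped between groups as well. Polr3e, a subunit of RNA polymerase III, differed by -0.47 in the probe set used, and its second probe set gave group means that differed by -0.04. Nr4a3, a nuclear receptor induced by neuronal activity, differed by -0.46, with 6.51 to 7.78 against 7.33 to 8.03. 1700031F05Rik differed by 0.31. Otor, a secreted protein of cartilage, also differed by 0.31, and its exposed arrays at 6.57 to 6.80 stayed above the vehicle arrays at 6.22 to 6.57, by 0.001 at the nearest point.

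**Figure D3:**
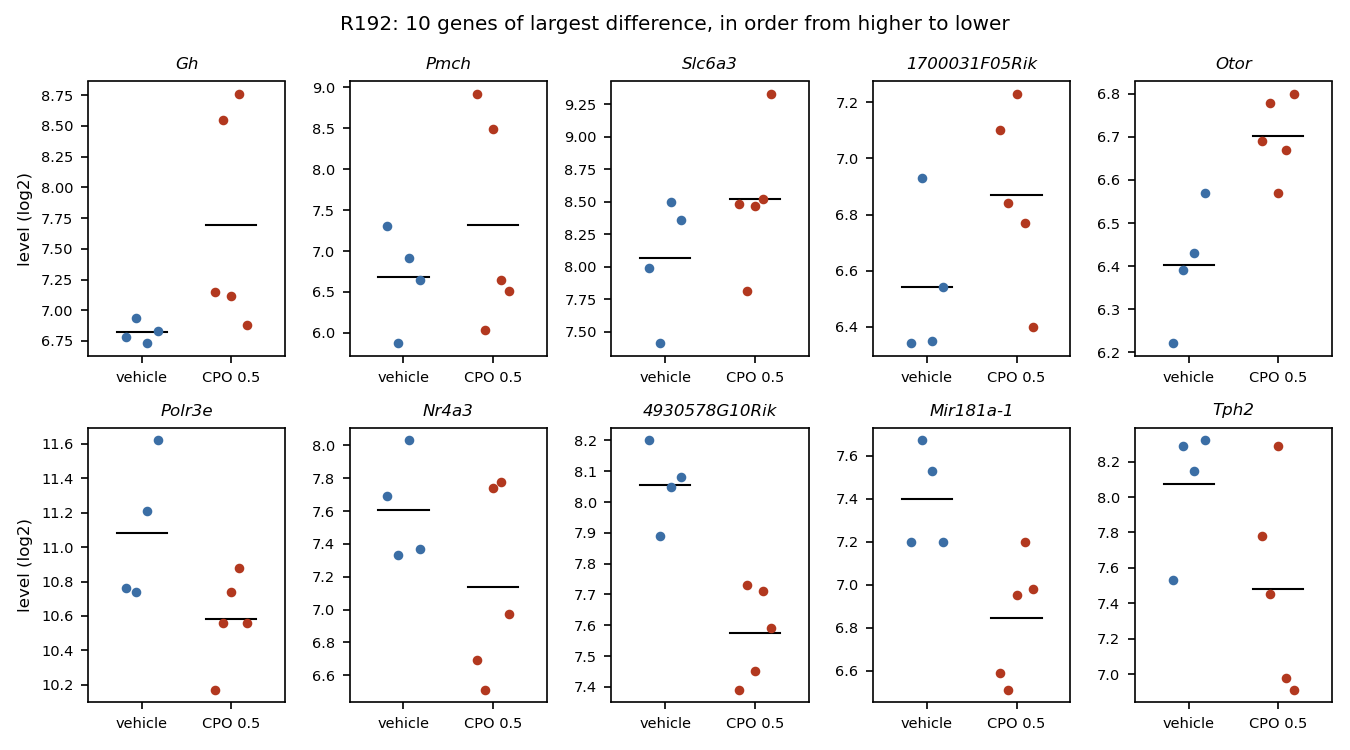
Level on the log2 scale in each of 4 vehicle arrays (blue) and 5 CPO 0.5 arrays (red) for the 5 genes furthest above and the 5 furthest below vehicle, with group means as bars and a vertical axis of its own for each gene. In Gh, exposed replicates 2 and 4 stand above 8.5 while every other array is at 7.15 or lower.

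The genes of enzymes that the oxon acts on, and of those that act on it, had mean RNA signals that differed little between the groups. Enzyme activity was not measured. Ache, acetylcholinesterase, was at 8.35, 8.63, 8.71, 8.31 and 8.60 with CPO and 8.72, 8.50, 8.70 and 8.32 with vehicle. The ranges coincided, and the difference was -0.04 (standard error 0.21, interval -0.45 to 0.38). Bche, butyrylcholinesterase, differed by -0.08 (interval -0.37 to 0.22), with levels of 7.56 to 8.01 against 7.53 to 8.05. The signs of both are not stable, since leaving out single arrays moved Ache from -0.12 to 0.02 and Bche from -0.16 to 0.02.

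The probe set of Pon1 was at 10.06, 10.02, 10.14, 10.31 and 10.08 with CPO and at 10.02, 10.19, 10.11 and 10.27 with vehicle. The difference was -0.03 (interval -0.29 to 0.23). Its signal was also high in the arrays labelled KO, and what this probe set reads was not tested. Pon2 and Pon3, lactonases related to Pon1, differed by 0.11 and -0.08. For Pon1, Pon2 and Pon3 the whole 95% interval lay between -0.5 and 0.5. The difference of Pon3 was 0.03 on array date 2 alone and that of Pon1 0.00.

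The lists of cholinergic genes showed no member at an unadjusted p under 0.05 in limma, which only 1.02% of all genes reached. In lists this short, a count of 0 is near that share. Of 10 genes for cholinesterases and the making and packing of acetylcholine, 4 were higher and 6 lower, with a median of -0.01. The members with the smallest p in each direction were Slc18a3, the vesicular acetylcholine transporter, at 0.17, and Chka, a choline kinase, at -0.09. Of 18 acetylcholine receptor genes and their helpers, 15 were higher, with a median of 0.05, where 52.6% of all tested genes were higher and the median was 0.004. Chrna7, the alpha 7 nicotinic subunit, differed by 0.12 and Chrm4, a muscarinic receptor, by -0.13. The 44 serine hydrolases that organophosphates can bind had 35 members higher and a median of 0.05, and Iah1, an esterase with the smallest p among those higher, differed by 0.10.

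Of the 708 genes in any list, 4 (0.565%) had an unadjusted p under 0.05 in limma, a smaller share than the 1.02% of all genes, and 2 of these 4 were clock genes. Per2, a repressor of the circadian loop, was at 7.57, 7.55, 7.64, 7.84 and 7.54 with CPO and 8.05, 7.66, 8.03 and 8.03 with vehicle. One vehicle array was low, the other 3 lay above every exposed array, and the difference was -0.31 (standard error 0.12, interval -0.55 to -0.08). Arntl, the activator of the same loop, was at 8.64, 8.64, 8.67, 8.71 and 8.74 against 8.46, 8.61, 8.30 and 8.36. All its exposed arrays lay above all vehicle arrays, and the difference was 0.24 (standard error 0.11).

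The clock list as a whole was mixed. Of its 19 genes, Per2 and Arntl included, 9 were higher and 10 lower, with a median of -0.03. The time of day at which tissue was taken is not in the labels. On array dates 1 and 2 alone Per2 differed by -0.26 and -0.34, and Arntl by 0.11 and 0.39.

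Genes that respond to glucocorticoid hormones leaned the other way from most lists. Of 19 tested, 17 were lower and 2 higher, with a median of -0.09. An unadjusted p under 0.05 in limma was seen for 0 of them and for 1.02% of all genes. Nfkbia, an inhibitor of NF-kappa-B, had the smallest p among them, with 8.76 to 9.01 against 8.94 to 9.07 and a difference of -0.14. The mean level of the list was 8.81 to 8.91 in the exposed arrays and 8.86 to 9.08 in the vehicle arrays, so the groups overlapped. Vehicle replicates 1 and 2 were both at 8.86, the mean of the exposed arrays, and replicates 3 and 4, which share a label number and array date 2, were at 9.02 and 9.08. Of the 32 immediate early genes, 21 were lower with a median of -0.02, and Klf10 had the smallest p of those higher, at 0.10. Per1, a further clock gene, stands in all 3 of the clock, glucocorticoid and immediate early lists, and Nfil3 in 2 of them.

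In the retinoid list, Dhrs3 was the single member of 22 at an unadjusted p under 0.05, which 1.02% of all genes reached. Of the 22 genes, 14 were higher, with a median of 0.04 and a range of -0.08 to 0.28. Crabp1, which carries retinoic acid in the cell, differed by -0.08.

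The stress lists differed in their counts from each other. The 26 glutathione and oxidative stress genes had a median of 0.01, with 16 higher, and Hmox1, heme oxygenase, differed by -0.10. For all 26 the 95% interval lay between -0.5 and 0.5. Of 30 heat shock and unfolded protein response genes, 25 were higher with a median of 0.05, where 52.6% of all genes were higher, again with all intervals inside these bounds. Pdia6, a protein disulfide isomerase, differed by 0.22 and Dnajb9, a chaperone partner, by -0.13. The 26 interferon and inflammation genes had a median of 0.01, with 15 higher, and the 12 genes of oxon metabolism one of 0.02, with 7 higher.

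Genes of synaptic transmission tended to small positive differences. Of 27 glutamate receptors and transporters 23 were higher, with a median of 0.04, and of 33 synaptic vesicle genes 25 were higher, with a median of 0.05. The 19 genes of GABA signalling had a median of 0.07, with 13 higher. The 45 axon guidance genes and 24 growth factor genes each had a median of 0.02. Of 38 cytosolic ribosomal protein genes 32 were lower, with a median of -0.04, and Rpl38 had the smallest p of them at -0.15, and its 4 probe sets ran from -0.13 to -0.16. Of the 6 that were higher, Rplp0 had the smallest p, at 0.06. The 64 respiratory chain genes had a median of -0.01 and the 20 cholesterol synthesis genes of 0.01.

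Cell type markers gave the same picture of small differences. The endothelial and pericyte list stood farthest from 0, with 14 of 16 members higher and a median of 0.15. Its mean level was 8.78, 8.74, 8.85, 8.70 and 8.80 with CPO and 8.60, 8.68, 8.66 and 8.73 with vehicle, so that 1 vehicle array lay above 1 exposed array. Vtn, an adhesion protein of pericytes, differed by 0.26, and Slco1a4, a transporter of the blood vessel wall, by -0.10. None of the 16 had an unadjusted p under 0.05 in limma, which 1.02% of all genes reached. In whole tissue, fewer cells of a type and less RNA per cell cannot be told apart.

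Markers for neurons of the cerebellar cortex had small median differences, with less precision than most genes. Of 20 granule neuron markers 16 were higher, with a median of 0.05. Grin2c, a glutamate receptor subunit of mature granule neurons, differed by 0.14. Of 16 Purkinje cell markers 8 were higher and 8 lower, with a median of 0.00. Slc1a6, their glutamate transporter, differed by 0.24 and Stac by -0.11. The 13 interneuron markers had a median of 0.03. The interval of the difference lay inside the bounds used above for 12 of the 20 granule neuron markers. It did so for 13 of the 16 Purkinje cell and 11 of the 13 interneuron markers, against 97.5% of all genes. For the rest, a change beyond these bounds was not excluded.

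The glial lists had small median differences as well, and equality was not shown. Of 18 markers of Bergmann glia and astrocytes 13 were higher, with a median of 0.07, where Sox9 differed by 0.18 and S100b by -0.14. The 22 oligodendrocyte and myelin genes were split 11 to 11, with a median of 0.00, from Aspa at -0.20 to Sox10 at 0.19. Of 8 precursor markers 6 were higher, among them Tnr at 0.16 with no overlap between groups, while Vcan was at -0.06. Of 20 microglia markers 13 were higher, with Csf1r at 0.26 and P2ry12 at -0.13. The interval of the difference lay inside the bounds used above for only 11 of the 22 oligodendrocyte and myelin genes. It did so for 14 of the 18 Bergmann glia and astrocyte, 6 of the 8 precursor and 18 of the 20 microglia markers. The choroid plexus and meninges lists, which mark tissue at the edge of the dissection, had medians of 0.08 and 0.05, and Alas2, the one blood gene tested, differed by 0.07.

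**Figure D4:**
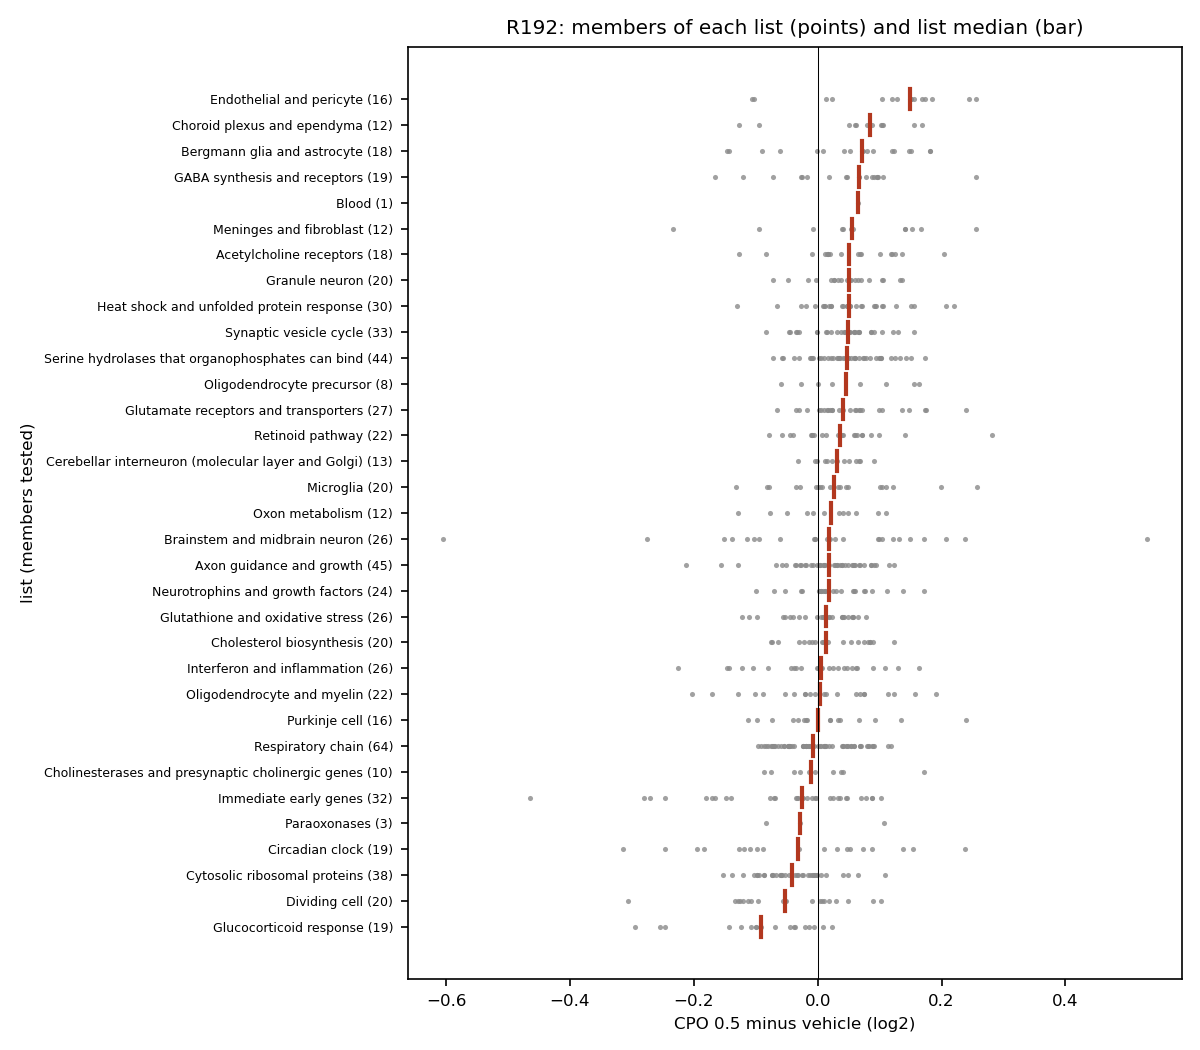
Difference between CPO 0.5 and vehicle in R192 (log2, horizontal axis) for each tested member (points) of 33 gene lists and the median of each list (red bar), with the number of members tested in parentheses. The list medians lie between -0.09 and 0.15, and 32 of 33 are within 0.1 of 0.

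No gene passed the threshold between the 2 doses in R192. In limma, 0% of genes differed between CPO 0.5 and CPO 0.35 at an adjusted p under 0.05. At an unadjusted p under 0.05, 340 of the 14950 genes did, and for 96.7% the 95% interval lay between -0.5 and 0.5. Each dose was set against the same 4 vehicle arrays. Some lists had other medians at the lower dose: granule neuron markers 0.27 at CPO 0.35 (20 of 20 higher) and 0.05 at CPO 0.5, Purkinje cell markers 0.14 and 0.00, and immediate early genes 0.12 and -0.02. Myelin genes had a median of -0.12 at CPO 0.35 and of 0.00 at CPO 0.5. Against vehicle, Myo10 differed by 0.23 at CPO 0.5 and by 0.30 at CPO 0.35, Dhrs3 by 0.28 and 0.35, Ift122 by 0.20 and 0.23, and Arntl by 0.24 and 0.27. For Mir181a-1 the values were -0.56 and -0.16, for Mir181b-1 -0.45 and -0.16, for Per2 -0.31 and -0.08, and for Gh 0.86 and 0.22.

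Named here are the 2 genes with the smallest p in each direction between the doses. Dusp1, a phosphatase induced with the immediate early genes, was at 8.93, 9.22, 9.93, 9.85 and 9.13 at CPO 0.5 and at 10.41, 9.86, 10.04, 9.92 and 10.26 at CPO 0.35. Replicates 1, 2, 4 and 5 of the higher dose were below all arrays of the lower dose, and the difference was -0.74 (standard error 0.21). It was -0.61 with the granule neuron markers as a covariate. Selenbp1 differed by -0.23, at 7.05 to 7.30 against 7.32 to 7.56. Pmaip1, a gene of the cell death programme, and Tssk3, a testis kinase, were 0.29 and 0.27 higher, and neither, like Dusp1 and Selenbp1, passed in limma at its adjusted p of 0.999.

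The effect of CPO 0.5 in R192 was next set against its effect in the other genotypes, as a difference of differences. Against WT, limma called 3 genes at an adjusted p under 0.05 (0.0201% of those tested), all with a more positive effect in R192. These were Ift122 (0.52, standard error 0.10), Lman2l (0.79, standard error 0.16) and Myo10 (0.58, standard error 0.12), each with an adjusted p of 0.0458. The threshold was just reached, and an unadjusted p under 0.05 was seen in limma for 2136 of the 14950 genes. The main comparison had 152.

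Each of these 3 genes fell in WT, while in R192 it did not pass. Lman2l, a cargo receptor between endoplasmic reticulum and Golgi, had group means of 9.47 (vehicle) and 9.61 (CPO) in R192 and of 9.75 and 9.09 in WT, where it fell by 0.64 at an adjusted p of 0.0147 in limma. Myo10 went from 8.66 to 8.89 in R192 and from 9.09 to 8.74 in WT, a fall with an adjusted p of 0.0337 in limma. Ift122 had means of 7.72 and 7.91 in R192 and of 8.08 and 7.77 in WT, a fall with an adjusted p of 0.0336 in limma. Both groups of WT enter these calls, and the WT group at CPO 0.5 has only 3 arrays.

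The R192 vehicle group stood lowest of the vehicle groups in these genes. The R192 vehicle means of Ift122 and Myo10, 7.72 and 8.66, compare with means of the other vehicle groups at 7.88 to 8.08 and 8.94 to 9.09. The calls rest on few arrays: leaving out any 1 of 18 arrays in turn gave 0 calls in 13 cases and at most 4. Either array date alone gave 0 calls, with values on date 1 and date 2 of 0.44 and 0.52 for Ift122, 0.98 and 0.63 for Lman2l and 0.50 and 0.57 for Myo10. Leaving out the date covariate gave 0 calls, as did averaging arrays of 1 label number with the date covariate and the number correlation left out, and array quality weights gave 1037.

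Against Q192, the other human form, 0% of genes differed in their effect at an adjusted p under 0.05 in limma. An unadjusted p under 0.05 was reached by 1036 of the 14950 genes. The 2 genes with the smallest p in each direction were Myo10 (0.47) and 2410002F23Rik (0.40), more positive in R192, and Snora2b (-0.55) and Rps20 (-0.41), more negative. Snora2b is a small nucleolar RNA and Rps20 a ribosomal protein, and their adjusted p in limma was 0.672, as for the other two. Against the arrays labelled KO the share called was again 0%, with 491 of the 14950 genes at an unadjusted p under 0.05 in limma. Etfbkmt, a methyltransferase of mitochondria, and Ctsk, a collagen protease, were more positive by 0.61 and 0.48, and Gapdhs and Pkp3, a desmosome protein, differed by -0.40 and -0.38, at an adjusted p of 0.869 in limma.

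The precision of these differences of differences was lower than that of the main comparison. The 95% interval lay between -0.5 and 0.5 for 75.3% of genes against Q192, 67.9% against WT and 72.6% against the arrays labelled KO. For Ache it ran from -0.33 to 0.85 against Q192 and from -0.35 to 0.87 against WT.

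**Figure D5:**
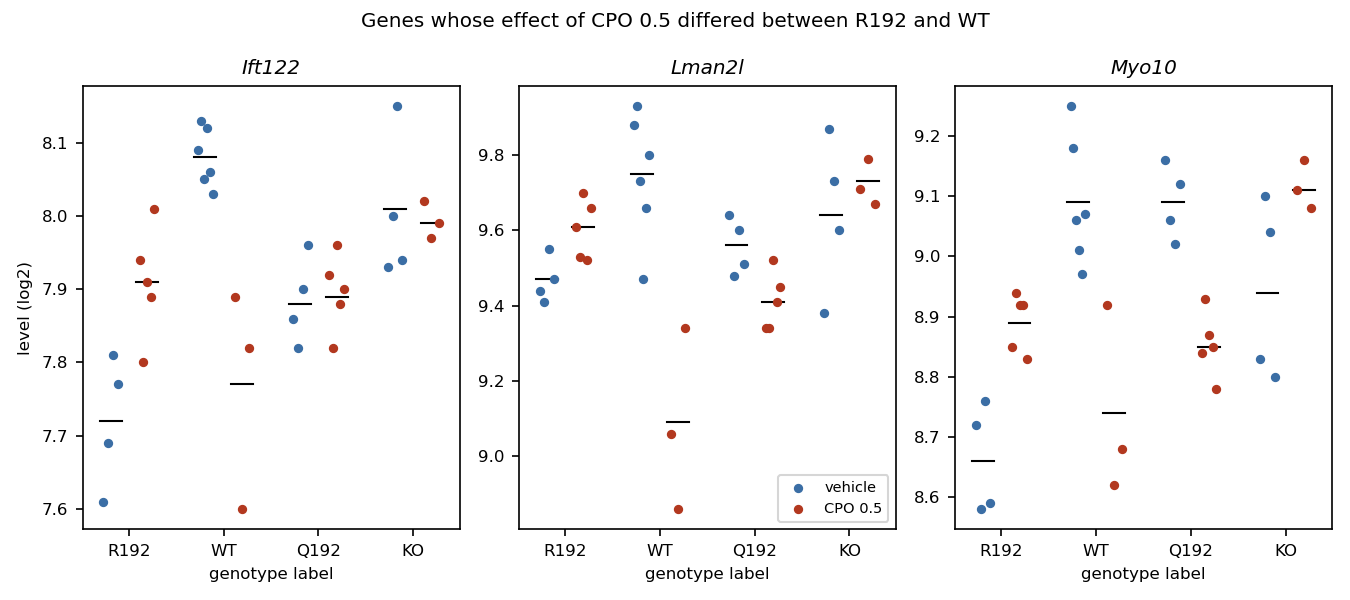
Level on the log2 scale of Ift122, Lman2l and Myo10 in each vehicle array (blue) and CPO 0.5 array (red) of the 4 genotypes, with group means as bars and a vertical axis of its own for each gene. In WT the 3 exposed arrays lie below all 6 vehicle arrays, whereas in R192 the exposed mean is above the vehicle mean.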

How the data were processed

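Total RNA from bisected cerebellum was hybridised to Affymetrix Mouse Gene ST 1.0 arrays, per the labels' protocols, and the series' design text gives quality control as the reason for the unequal group sizes. The values deposited by the authors were taken as log2 levels, since they ran from 1.15 to 14.8 and no source names the log base. The authors made them in Affymetrix Expression Console 1.1 by RMA, per the submitters' processing notes, a method that corrects background, equalises the distribution of arrays and summarises probes. Such equalising removes shifts shared by all genes.

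Of 35557 probe sets, 21789 had 1 gene symbol. The one with the highest mean stood for a gene with several. Tests took genes with a mean over the 25th percentile of all genes, leaving out 3 sex-linked genes. All 55 arrays entered 1 fit in limma 3.58.1 (R 4.3.3), with a mean per group, array date as a covariate and a correlation of 0.131 between arrays that share a number in their description. This number was held by several arrays in 17 cases, and the labels do not explain it. The R192 groups each hold 3 numbers, so some of their arrays may share a source. eBayes used a variance trend, with 42 residual degrees of freedom, and p-values were two-sided and adjusted by Benjamini and Hochberg's method over all 14950 genes. A difference is the fitted one and can depart slightly from that of the printed group means. The fit was run on simulated data with noise drawn as the model assumes and independent between genes. This checks the code and cannot show how well the pooled spread describes the R192 arrays. Figures used Python 3.11.15.

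Named genes are those that passed, else the 10 per direction of smallest p, the 5 largest and the 5 with the widest gap, the paraoxonases and cholinesterases, and the leading member of a list in each direction. In the other comparisons, where no gene passed, the 2 of smallest p in each direction are named. The comparison, the gene lists and the genes were chosen with earlier results of these data known. No 2 arrays within either R192 group compared held the same values. The smallest root mean square difference between them was 0.256 over all probe sets. Replicate numbers in the titles were not used to pair samples. Alternatives left out the date, the number correlation, the filter or single arrays, and changed the samples fitted, the weights, the centring, the choice of probe sets and the variance model.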

Additional observations from a re-analysis of the deposited data

Results flagged for a closer look

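For genes and list means named here, the highest and lowest array of each R192 group was compared with its neighbours, in 208 groups, and 11 arrays stood apart by Dixon's 95% limit. Chance flags about 1 in 20 such groups. Among vehicle arrays, Mir181b-1 was at 9.80 in replicate 2, against 9.32 to 9.37 in the other 3, and Per2 was at 7.66 in the same replicate, against 8.03 to 8.05. Amacr was at 7.14 in vehicle replicate 1, against 7.03 to 7.04, and the mean of the cytosolic ribosomal protein genes was 10.98 in vehicle replicate 3, against 11.07 to 11.08.

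Among exposed arrays, Baiap2l1 was at 13.98 in replicate 5 (others 14.23 to 14.29), and Prss35 at 7.02 in replicate 5 (others 7.12 to 7.16). Zbtb8b was at 6.58 in replicate 1 (others 6.69 to 6.73), and Tnr at 9.31 in replicate 1 (others 9.04 to 9.09). Chst14 was at 7.48 in replicate 3 (others 7.26 to 7.30). In replicate 4 the mean of the axon guidance genes was 8.76 (others 8.83 to 8.85) and that of the respiratory chain genes 10.98 (others 10.90 to 10.92).

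By the interaction term of limma, the effect of CPO 0.5 differed between R192 and WT in 3 genes, each at an adjusted p of 0.0458. The differences were 0.52 in Ift122, 0.79 in Lman2l and 0.58 in Myo10. No gene was called in 13 of 18 fits that left out 1 array, nor on either array date alone.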

How the results depend on the processing

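The count of genes called between CPO 0.5 and vehicle in R192 was 0 under all 19 alternatives and without each of the 9 arrays in turn. The same held for CPO 0.5 against CPO 0.35 and for R192 against the arrays labelled KO. Genes with p under 0.05 before adjustment went from 152 to 345 with only the arrays compared, to 241 with arrays of 1 number averaged and the date covariate and number correlation left out, to 311 with no filter on level, to 53 above the median level and to 377 with array quality weights, and without single arrays it ran from 96 (without CPO 0.5 replicate 5) to 189. With the median filter, which tests fewer genes, 9674 intervals lay inside the bounds, and without single arrays 14295 to 14507 did. Groups did not overlap in 188 genes with no filter. Against Q192, 67 genes were called with only the arrays compared (63 more positive in R192) and 2 with array quality weights. Against WT the 3 calls became 0 without the date, with numbers averaged (date and number correlation left out too), with no filter, on either array date alone and without both arrays of high Gh, 1 with only the arrays compared (Ncam1, so that none of the 3 stayed), 1 with the replicate block (Myo10), 5 with brainstem markers and 2 with granule neuron markers as a covariate, and 1037 with array quality weights (694 more positive). Without single arrays there were 0 to 4, and all 3 genes stayed called only without R192 vehicle replicate 3 or WT vehicle replicate 5. Except for the changes that follow from fewer genes or arrays, the cause was not tested.

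Of the values of 86 single-gene results under these alternatives, 11 changed sign, in 5 genes: on array date 2 alone Pmch was -0.2018, Pon1 0.0045, Pon3 0.0273 and Bche 0.0139, and Pon3 was 0.0299 without both arrays of high Gh. Without single arrays Ache ran from -0.1198 to 0.0231, Bche from -0.1581 to 0.0248 and Pon1 from -0.0816 to 0.0166. The alternatives without both arrays of high Gh, without 3 arrays of high Xist and without 1 KO array that shares a number with R192 were chosen after seeing the data. Replicates of the 2 groups with the same replicate number in their titles correlated by -0.11 to 0.215 in their deviations. In 1 of 4 pairs the own number was the best. So few pairs cannot decide whether these numbers pair the samples. The replicate block moved no call other than those against WT.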
